A study of Mus musculus with 2 samples.

Results

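The genes described here are 8 genes of the death receptor and caspase pathway, Fas, Fasl, Casp2, Casp6, Casp8, Casp9, Apaf1 and Cflar. They were chosen by name and found by Ensembl identifier, and all 8 had an entry among the 69691 entries of each gene table. They make up 8 of 21461 nuclear protein-coding genes. The samples were mouse erythroid progenitor cells labelled CFU-Ery, committed bone marrow cells that give rise to red blood cells. They were primary cells of adult male C57BL/6J mice aged 5 to 6 weeks. The labels name no treatment and no genetic change, and they point to a bone marrow progenitor isolation. Total RNA was sequenced in 1 group of 2 libraries, biological replicates 1 and 2, each from 1 ng of RNA. The libraries come from separate biosamples under a single donor record, so the spread between them may be technical.

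Caspases are proteases that are made as inactive precursors and cut other proteins once activated. In the receptor route, Fas ligand binds Fas at the cell surface, and the receptor gathers an adaptor and caspase-8, an initiator that cuts executioner caspases. c-FLIP, the product of Cflar, is related to caspase-8 but lacks its protease activity and competes for the same complex. In the mitochondrial route, cytochrome c binds APAF1, which assembles into the apoptosome and activates caspase-9. In red cell development, Fas and Fas ligand on erythroblasts are known to take part in limiting their number, and caspases are also active in normal maturation.

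The caspases among the 8 genes share the site that carries the catalytic cysteine. The coding bases around this site are shown because it sets the caspases apart from Cflar, whose level is compared with that of Casp8 below. Each run comes from the GENCODE M21 transcripts on GRCm38, 5′ to 3′. The capitals mark the codons of the caspase active-site pentapeptide motif, the third of which codes for the cysteine.
Casp2-201: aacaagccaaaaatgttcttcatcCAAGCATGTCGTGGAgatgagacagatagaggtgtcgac
Casp6-201: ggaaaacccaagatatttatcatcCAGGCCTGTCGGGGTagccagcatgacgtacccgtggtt
Casp8-201: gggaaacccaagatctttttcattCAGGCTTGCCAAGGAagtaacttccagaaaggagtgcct
Casp9-201: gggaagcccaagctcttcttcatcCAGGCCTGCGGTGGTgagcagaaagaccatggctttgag
The capitals lie at chr6:42276770-42276784 in Casp2, chr1:58844613-58844627 in Casp8 and chr4:141807247-141807261 in Casp9, all on the plus strand. In Casp6, on chromosome 3, an intron splits them, so that they span 129910696 to 129912129. Casp6 and Casp9 had the most similar capitals, with 12 of 15 bases identical, and the other pairs had 10 or 11. The search for the motif requires the same base at most of these positions, so much of this identity was set in advance. No in-frame match of the motif was found in the 1443 coding bases of Cflar-205 or in the 645 of the shorter Cflar-204.

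Mitochondrial RNA took 90.3% of the expected counts of replicate 1 and 88.3% of those of replicate 2. Of totals of 143491647 and 110634458 expected counts, 4717790 and 4093202 fell on nuclear protein-coding genes. Levels are therefore given as rescaled TPM, which is the expected count per effective length, set to sum to 1000000 over the nuclear protein-coding genes. On this scale 1 deposited TPM equals 43.1 in replicate 1 and 37 in replicate 2. All 8 erythroid markers were above 1 rescaled TPM in both libraries, against 44.6% of all nuclear protein-coding genes. Highest were the beta-globin gene Hbb-bs at 98686 and 97052 and the anion exchanger gene Slc4a1 at 5345 and 5498. All 9 neutrophil and monocyte markers were also above 1, with summed levels of 23405 and 27331 against 112373 and 110733 for the erythroid list. On protein-coding transcripts alone the erythroid list summed to 33800 and 36733, with Hbb-bs at 23785 and 26645, and the neutrophil and monocyte list to 23269 and 27243, so the lists lay closer together on that measure. The 2 highest of them were S100a9 at 7454 and 9233 and S100a8 at 7354 and 8763. The B-cell list (5 of 5 markers above 1, summed levels 670.2 and 653.7, led by Ighm and Cd79b) and the macrophage list (7 of 7, 500.0 and 562.3, led by C1qb and Vcam1) were lower. The stem and multipotent progenitor list summed to 48.8 and 40.5, with 6 of 6 markers above 1, led by Kit and Gata2. The part of these other cells in the levels below was not tested. In bulk RNA, fewer cells that express a gene and less RNA per cell cannot be told apart.

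The caspases, Apaf1 and Cflar were detected in both libraries, from percentile 69.8 to 94.1 of nuclear protein-coding genes, whereas Fas was not detected. In both libraries 6 of 8 genes reached 1 rescaled TPM, against 44.6% of all nuclear protein-coding genes. The median over the 8 genes was 25.6 in replicate 1 and 16.9 in replicate 2, and the median over all nuclear protein-coding genes was 0.629 and 0.761. Their summed level was 255.1 and 198.8, a mean of 226.9 ± 39.8 rescaled TPM (SD, n = 2). In expected counts they took 0.0420% and 0.0388% of those on nuclear protein-coding genes. Casp2 alone held 43.4% and 34.2% of the summed level. With 1 group of 2 libraries no group comparison exists, and a two-sided exact sign-flip test could not go below p = 0.5, so differences are set against the range of the libraries and the counting error. The 95% intervals and floors cover counting error only, since amplified reads are not independent molecules.

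**Figure D1:**
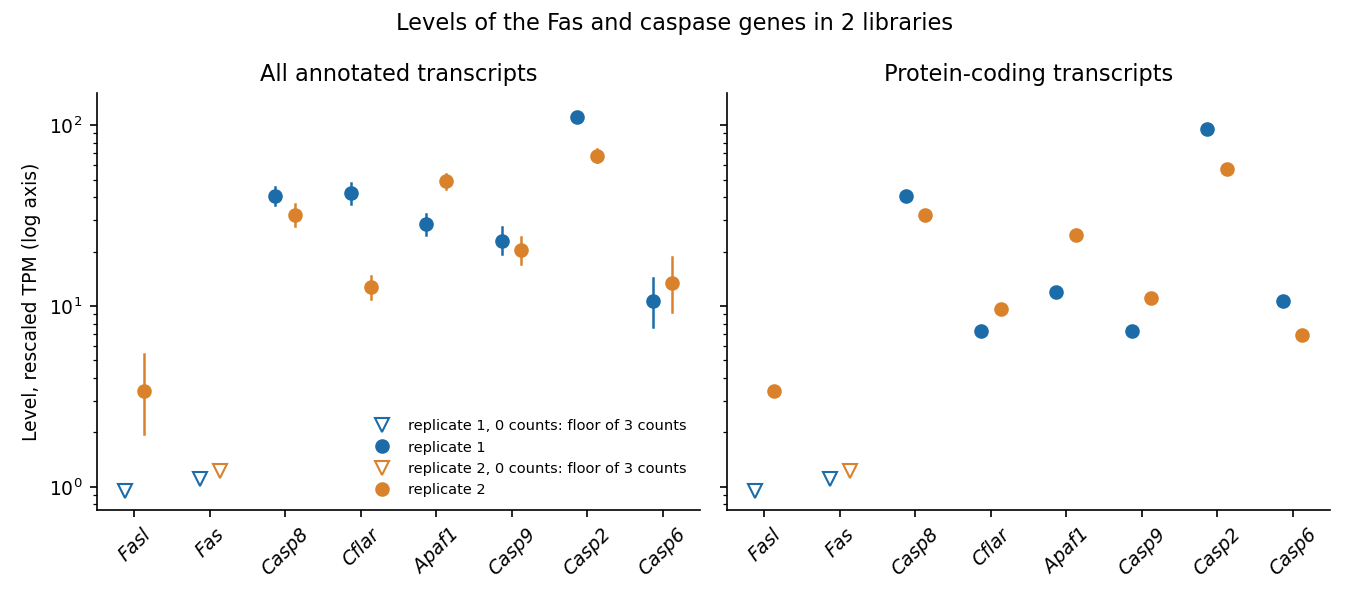
Level of each gene in rescaled TPM (log axis) in replicates 1 and 2, with exact Poisson 95% intervals of the counts. Casp2 lies highest in both libraries, Fasl has a value only in replicate 2, and Fas has none in either.

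Fas, the death receptor gene (ENSMUSG00000024778, chromosome 19, 34290666 to 34327772, plus strand), had 0 expected counts in both libraries. A floor of 3 counts puts its level at up to 1.11 rescaled TPM in replicate 1 and 1.22 in replicate 2. Of all nuclear protein-coding genes, 42.1% also had 0 counts in both libraries. Both annotated Fas transcripts in the tables, of 1486 and 555 nt, are protein-coding, and neither received a count. With Fas set at this floor, it was 36.6-fold and 26.3-fold lower than Casp8 and 99.98-fold and 55.7-fold lower than Casp2. Against Casp6 it was 9.60-fold and 10.98-fold lower. These folds use the point values of the caspases and leave out their counting error. A level near that of these caspases would thus have been detectable at this depth, and a level around 1 rescaled TPM would not.

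Fasl, which encodes the ligand (ENSMUSG00000000817, chromosome 1, 161780689 to 161788495, minus strand), had 0 expected counts in replicate 1 and 17 in replicate 2. In replicate 1 a floor of 3 counts is 0.945 rescaled TPM, and the exact 95% interval reached 1.16. Its level in replicate 2 was 3.38 (1.97 to 5.42). The libraries differ in whether Fasl was detected at all. The 17 counts were assigned to the longer transcript, Fasl-201. In replicate 2, Fas set at its floor of 3 counts was 2.78-fold lower than Fasl, and in replicate 1 no ratio can be given. That fold uses the point value of Fasl and leaves out the counting error of its 17 counts, so it is not a lower bound. Fas ligand is a product of activated T and natural killer cells. Of 9 markers of those cells, 6 reached 1 rescaled TPM in both libraries, against 44.6% of all nuclear protein-coding genes. The summed level of the 9 markers was 135.0 in replicate 1 and 125.8 in replicate 2. Nkg7, a granule protein gene of such cells, made up most of these sums at 91.0 and 81.9, and the receptor gene Klrd1 was at 10.6 and 11.1. On protein-coding transcripts 5 of 9 markers reached 1 in both libraries, against 41.2% of all nuclear protein-coding genes. Klrd1 was at 0 and 3.64 on that measure. Cd8a, the co-receptor of cytotoxic T cells, and Prf1, which encodes perforin, had 0 counts in both. Their part in the Fasl counts was not tested.

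Casp8, the receptor-route initiator (ENSMUSG00000026029, chromosome 1, 58795374 to 58847503, plus strand), had 303.8 and 200.5 expected counts. Its level was 40.5 (36.1 to 45.3) rescaled TPM in replicate 1 and 32.0 (27.8 to 36.8) in replicate 2, a mean of 36.3 ± 5.96 (SD, n = 2). This placed it at the 85.6th and 83.5th percentile of nuclear protein-coding genes. Every Casp8 count in both libraries lay on protein-coding transcripts. In replicate 1 all of them were assigned to Casp8-201, and in replicate 2 Casp8-202 took 49.0 of them, or 30.8% of the level. Both transcripts hold the same 1440 coding bases and differ in their untranslated ends, so this split leaves the encoded protein the same. The active-site run printed above for Casp8-201 is therefore also that of Casp8-202.

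Cflar, which encodes c-FLIP (ENSMUSG00000026031, chromosome 1, 58711508 to 58758884, plus strand), had similar counts in both libraries and different levels. Its expected counts were 224.3 and 187.0, and its level was 42.0 in replicate 1 and 12.7 in replicate 2, a mean of 27.4 ± 20.7 rescaled TPM (SD, n = 2). The effective length that the authors' quantification gave the gene was 1742 in replicate 1 and 5249 in replicate 2, a 3.01-fold difference. Among genes with 20 or more expected counts on average, 4.58% had effective lengths over 2-fold apart, and 1.96% did among those with mean counts of 100 to 1000. The difference in level between the libraries therefore came with the transcripts that the counts were assigned to. In replicate 1, 17 counts went to Cflar-208, a non-coding transcript of 378 nt, and because it is short they made up 54.5% of the gene's level but 7.58% of its counts. In replicate 2 Cflar-208 had 0 counts. Its posterior mean share, the authors' other estimate, was 47.4% and 7.04%. Most of Cflar-208 is a block of 230 bases at chr1:58713660-58713889 on the plus strand, an extension of an exon into the following intron that no coding Cflar transcript holds. Its sequence is given because the counts assigned to this transcript made up more of the level in replicate 1 than those of any other Cflar transcript.
Cflar-208: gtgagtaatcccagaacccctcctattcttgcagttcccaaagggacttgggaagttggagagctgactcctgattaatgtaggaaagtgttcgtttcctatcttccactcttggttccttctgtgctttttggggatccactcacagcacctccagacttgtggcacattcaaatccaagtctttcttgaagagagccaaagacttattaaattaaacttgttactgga
The main coding transcript, Cflar-205, is 6572 nt long and had 143.3 and 156.4 counts, which gave it 17.3% and 68.3% of the level. A retained-intron transcript, Cflar-213, had 48.5 and 24 counts, or 10.6% and 19.1% of the level. Cflar-203, also non-coding, had 9.14 and 0 counts.

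The level of protein-coding transcripts alone was added as a measure after these values were seen. On it, Cflar was at 7.27 and 9.58 rescaled TPM, a mean of 8.42 ± 1.63 (SD, n = 2), so its libraries came closer together and replicate 2 became the higher one.

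**Figure D2:**
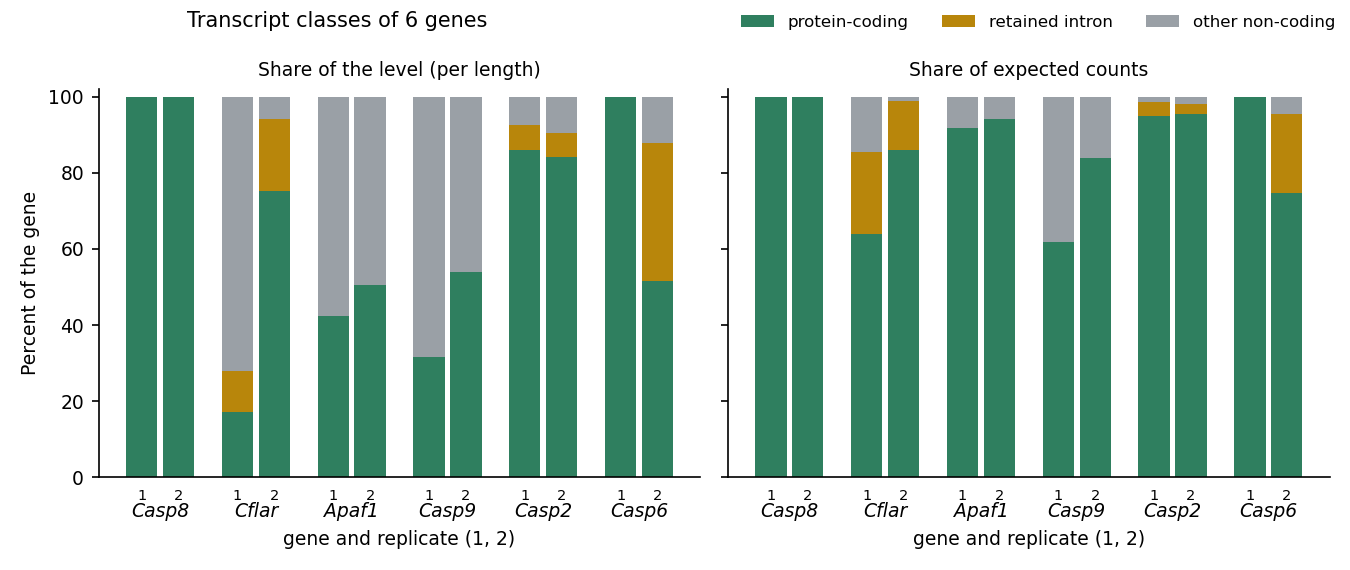
Share of each gene's level (left) and of its expected counts (right) on protein-coding, retained-intron and other non-coding transcripts, in percent, 1 bar per library. The coding share of Cflar is 17.3% of the level and 63.9% of the counts in replicate 1, and every Casp8 bar is fully coding.

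The balance of initiator to inhibitor depended on which transcripts were counted. Over all transcripts, the log2 ratio of the Casp8 level to the Cflar level was -0.05 (-0.31 to 0.20) in replicate 1 and 1.33 (1.03 to 1.62) in replicate 2, a mean of 0.64 ± 0.98 (SD, n = 2). Casp8 and Cflar were thus level within counting error in replicate 1, and Casp8 was 2.51-fold higher in replicate 2. For protein-coding transcripts the log2 ratio was 2.48 (2.19 to 2.77) and 1.74 (1.44 to 2.05), so that Casp8 was 5.57-fold and 3.35-fold higher than Cflar. On that measure both libraries had more Casp8 than Cflar, beyond the counting error in each. All 4 Casp8 transcripts in the tables are coding but only 4 of the 13 of Cflar, so the restriction could lower Cflar alone and could only raise this ratio. In expected counts, which favour the longer Cflar transcript, the log2 ratio was 0.44 and 0.10.

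Casp9, the initiator of the mitochondrial route (ENSMUSG00000028914, chromosome 4, 141793612 to 141815976, plus strand), had 135 and 138 expected counts. Its level was 23.0 (19.3 to 27.2) and 20.4 (17.2 to 24.2) rescaled TPM, a mean of 21.7 ± 1.80 (SD, n = 2), and so its libraries lay within each other's counting error. The coding transcript Casp9-201 held 31.5% and 53.9% of the level and 61.9% and 83.8% of the counts. Casp9-203, a non-coding transcript of 854 nt, held 48.2% and 40.9% of the level from 24.4 and 16.7 counts. All of its bases lie in untranslated exons of coding Casp9 transcripts, so the split of reads between it and those transcripts is an estimate. A longer non-coding transcript, Casp9-204, had 27 and 5.58 counts. On coding transcripts alone, Casp9 was at 7.25 and 11.02 rescaled TPM.

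Apaf1, which encodes the scaffold of the apoptosome (ENSMUSG00000019979, chromosome 10, 90989311 to 91082770, minus strand), had 230 and 445 expected counts. Its level was 28.3 (24.8 to 32.2) and 48.9 (44.4 to 53.6) rescaled TPM, a mean of 38.6 ± 14.5 (SD, n = 2). The intervals of the libraries did not overlap, with replicate 2 the higher one. The coding transcript Apaf1-202 had similar counts in both, 196.9 and 184.5. Apaf1-201 had no counts in the first library and 219.6 in the second. Both transcripts hold the same 3747 coding bases. Apaf1-201 differs by 108 and 43 non-coding bases near its start, and Apaf1-202 by 7 bases at its end, so nearly all of their sequence is shared and the split is an estimate. The short non-coding Apaf1-204, of 511 nt, had 18.7 and 18.4 counts but 57.5% and 36.2% of the level, and none of its bases lie outside the exons of coding transcripts. Another non-coding transcript, Apaf1-203, had 0 and 8.31 counts. In counts, 91.9% and 94.0% of Apaf1 was coding, and per length 42.5% and 50.5%.

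For comparison, protein-coding transcripts held a median of 80.2% and 79.6% of the level, and of 91.0% and 91.4% of the counts, over 5562 nuclear protein-coding genes that are annotated with both classes of transcript, have counts in both libraries and average at least 20. Of those genes, 17.8% were under 50% of the level in both libraries, which holds for none of the 5 of the 8 genes in this set, since Casp8 has coding transcripts alone. In replicate 1 only, Cflar, Casp9 and Apaf1 were under 50%, that is 3 of 5 against 10.6% of the set. In replicate 2 they were at 75.1%, 53.9% and 50.5%. Casp9 and Apaf1 thus lay close to the cut there, and both counts depend on where it is set.

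Within the apoptosome pair, Apaf1 had the higher value in both libraries. The log2 ratio of the Casp9 level to the Apaf1 level was -0.30 (-0.62 to 0.01) in replicate 1 and -1.26 (-1.54 to -0.98) in replicate 2, a mean of -0.78 ± 0.68 (SD, n = 2). In replicate 1 the interval reached 0, so that the difference was within counting error there. On protein-coding transcripts it was -0.73 (-1.11 to -0.36) and -1.16 (-1.47 to -0.86), below 0 in both. In expected counts it was -0.77 and -1.69.

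**Figure D3:**
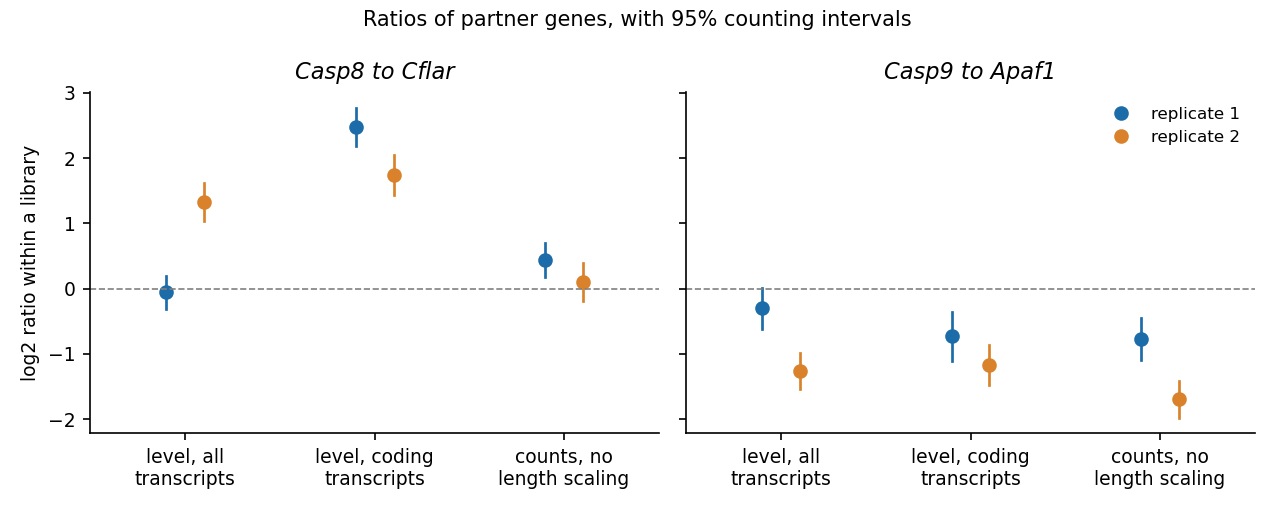
Log2 ratio of Casp8 to Cflar and of Casp9 to Apaf1 in each library, over all transcripts, protein-coding transcripts and expected counts, with 95% counting intervals. Casp8 over Cflar moves from -0.05 and 1.33 to 2.48 and 1.74 on coding transcripts, and Casp9 over Apaf1 stays below 0.

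Casp2, a conserved caspase that is activated through PIDD1 and the adaptor RAIDD (ENSMUSG00000029863, chromosome 6, 42264985 to 42282508, plus strand), was the most abundant of the 8 genes in both libraries. It had 1044 and 568 expected counts and a level of 110.6 (104.0 to 117.6) and 67.9 (62.5 to 73.8) rescaled TPM, a mean of 89.3 ± 30.2 (SD, n = 2). This is the 94.1th and 90.9th percentile of nuclear protein-coding genes. Its 1 coding transcript in the tables, Casp2-201, held 86.1% and 84.2% of the level. Casp2 was 2.73-fold and 2.12-fold above Casp8, a log2 ratio of 1.45 (1.26 to 1.64) and 1.08 (0.85 to 1.32), and it was 4.81-fold and 3.32-fold above Casp9. Both ratios exceeded the counting error in each library. On coding transcripts Casp2 was 2.35-fold and 1.79-fold above Casp8.

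Casp6, an executioner caspase known for cutting lamins (ENSMUSG00000027997, chromosome 3, 129901425 to 129914103, plus strand), had the fewest counts of the caspases among the 8 genes, 43 and 34. Its level was 10.6 (7.69 to 14.3) and 13.4 (9.27 to 18.7) rescaled TPM, a mean of 12 ± 1.95 (SD, n = 2). In replicate 1 all counts were assigned to the coding transcript Casp6-201. In replicate 2 that transcript had 25.4 counts, the retained-intron transcript Casp6-203 had 7.10 (36.2% of the level) and Casp6-202 had 1.55 (12.3%). On coding transcripts Casp6 was at 10.6 and 6.89 rescaled TPM, so that the order of the libraries turned. Casp8 was 3.81-fold and 2.39-fold above Casp6.

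In order of mean level, Casp2 came first, followed by Apaf1, Casp8, Cflar, Casp9, Casp6, Fasl and Fas. Casp2 lay above Apaf1 and Casp9 above Casp6 with no overlap of the libraries, and Casp6 lay above Fasl. Apaf1, Casp8 and Cflar overlapped each other, and Cflar also overlapped Casp9. Apaf1 and Casp8 lay above Casp9 in both libraries with no overlap, and the log2 ratio of Casp8 to Casp9 was 0.82 (0.52 to 1.12) and 0.65 (0.33 to 0.97). On protein-coding transcripts, Casp2 (95.2 and 57.2), Casp8 (40.5 and 32.0), Apaf1 (12.03 and 24.7) and Casp9 (7.25 and 11.02) followed each other with no overlap. Casp9, Casp6 and Cflar overlapped there.

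In expected counts, the libraries differed most in Apaf1 among the 6 genes that averaged 20 or more, whereas per length they differed most in Cflar, with an uncentred log2 ratio of levels of 1.72 against -0.79 for Apaf1. The log2 ratio of counts, replicate 1 over replicate 2 and centred on the median of all genes tested, was -1.16 (-1.40 to -0.93) for Apaf1, and this was the 1 gene of 6 over 2-fold apart. Over all 9078 nuclear protein-coding genes tested, 17.6% were over 2-fold apart, and among those with mean counts of 100 to 1000, where Apaf1 lies, 6.36% were. The ratio was 0.67 (0.52 to 0.82) for Casp2 and 0.39 (0.13 to 0.65) for Casp8, both higher in replicate 1 beyond counting error. It was 0.05 for Cflar, 0.12 for Casp6 and -0.24 for Casp9, within counting error for each. These ratios compare 2 libraries, not conditions.

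**Figure D4:**
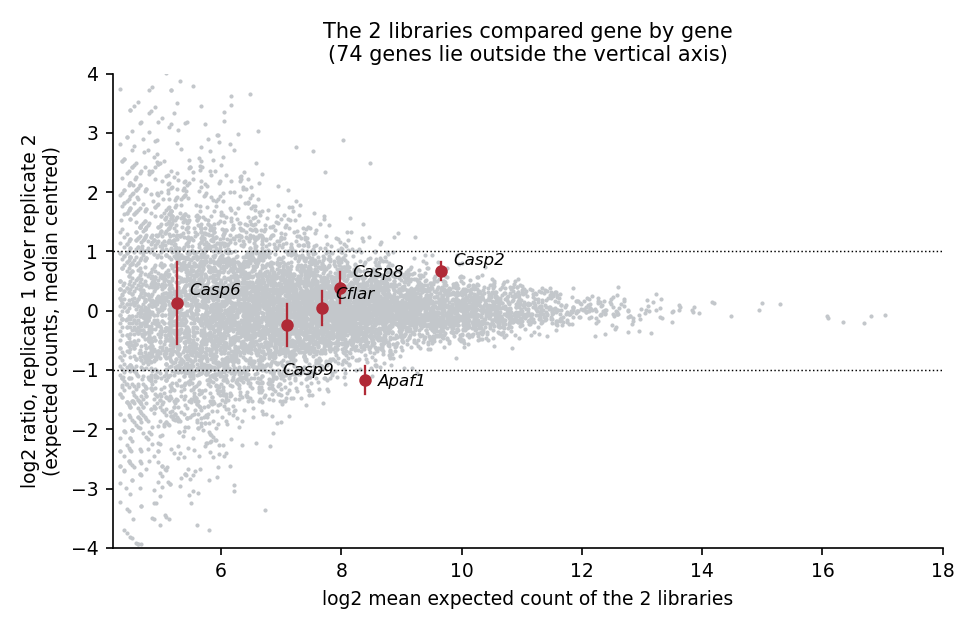
Centred log2 ratio of expected counts, replicate 1 over replicate 2, against log2 mean count, for nuclear protein-coding genes (grey) and 6 of the 8 genes (red, 95% counting intervals), with dotted lines at 2-fold. Apaf1 at -1.16 is the 1 red point past a line, and Casp2 at 0.67 is the highest red point.

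Among the other ligands and receptors of this family, 5 of 11 reached 1 rescaled TPM in both libraries, a share close to the 44.6% of all nuclear protein-coding genes. The list's median was 0.383 in replicate 1 and 3.49 in replicate 2. The highest were Tnfrsf21, which encodes death receptor 6, at 14.6 and 20.1, Tnfrsf1b, a TNF receptor without a death domain, at 23.7 and 7.88, and the cytokine gene Tnf at 9.77 and 13.0. On protein-coding transcripts Tnfrsf1b was at 7.64 and 7.88. Lta, Tnfrsf25 and Ngfr had 0 counts in both libraries, like Fas.

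Of the adaptors and kinases that work beside these receptors, 11 of 12 were above 1 in both libraries, against 44.6% of nuclear protein-coding genes. The list's median was 11 and 8.39. Faf1, a Fas-associated factor, was at 70.2 and 52.3, and Daxx, a Fas-binding protein that is mainly nuclear, at 24.7 and 17.1. Pidd1, the scaffold of the caspase-2 complex, was at 35.4 and 35.1, of which 0 and 7.22 was on protein-coding transcripts. The lowest by mean level were Fadd, the adaptor that links Fas to caspase-8, at 6.76 and 3.04, and Cradd, which encodes the RAIDD adaptor of caspase-2, at 0.647 and 0.711. Cradd rested on 3 expected counts in each library. On protein-coding transcripts Faf1 was at 43.9 and 40.2 and Daxx at 4.27 and 9.28, and the list's median was 6.66 and 6.87.

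The other caspases reached 1 in both libraries in 4 of 6 genes, against 44.6% of all nuclear protein-coding genes. Casp1, the inflammatory caspase, was at 18.5 and 26.6, and Casp4, a sensor of bacterial lipopolysaccharide, at 10.1 and 16.7, of which 6.54 and 6.21 was on protein-coding transcripts. Casp12 and Casp14 had 0 counts in both.

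All 8 inhibitor of apoptosis genes and their antagonists were above 1 in both libraries, against 44.6% of all nuclear protein-coding genes. The list's median was 86.7 and 58.3, higher than that of the 8 genes described here. Birc5, which encodes survivin and acts mainly in cell division, was at 961.4 and 801.7. Birc6 was at 187.8 and 140.5, and Htra2, a mitochondrial protease that counters these inhibitors, at 103.1 and 110.5. The lowest were Diablo, another antagonist, at 13.5 and 29.6 and Birc3 at 6.92 and 12.4. On protein-coding transcripts Birc6 was at 60.3 and 42.8, Htra2 at 46.2 and 35.7 and Diablo at 3.30 and 10.7. The list's median there was 34.6 and 27.5, against 8.95 and 10.3 for the 8 genes.

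Among genes of the mitochondrial release step, 6 of 9 were above 1 in both libraries, against 44.6% of all nuclear protein-coding genes. The list's median was 12.4 and 16.7. The outer membrane channel gene Vdac2 was at 125.2 and 141.3, the pore-forming Bak1 at 32.9 and 39.8 and Aifm1, which encodes apoptosis-inducing factor, at 34.6 and 24.03. On protein-coding transcripts Bak1 was at 3.70 and 6.45 and Aifm1 at 8.79 and 7.25, and the list's median was 4.66 and 7.25. Aven, which encodes an APAF1-binding inhibitor, had 0 counts in replicate 1 and was at 1.32 in replicate 2, and Bok had 0 counts in both.

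Of 15 caspase substrates, effectors and chaperones, 11 were above 1 in both libraries, against 44.6% of all nuclear protein-coding genes. The list's median was 46.7 and 41.5. The highest were the chaperone gene Hspa8 at 726.7 and 572.3 and 2 genes of erythroid transcription factors known as caspase substrates, Tal1 at 233.6 and 261.1 and Gata1 at 256.4 and 210.2. On protein-coding transcripts Hspa8 was at 348.4 and 415.9, and the list's median was 31.8 and 22.9. Lmnb2, a lamin gene, was at 1.15 and 0.422, and Xkr8, a lipid scramblase gene, at 0.238 and 0.

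**Figure D5:**
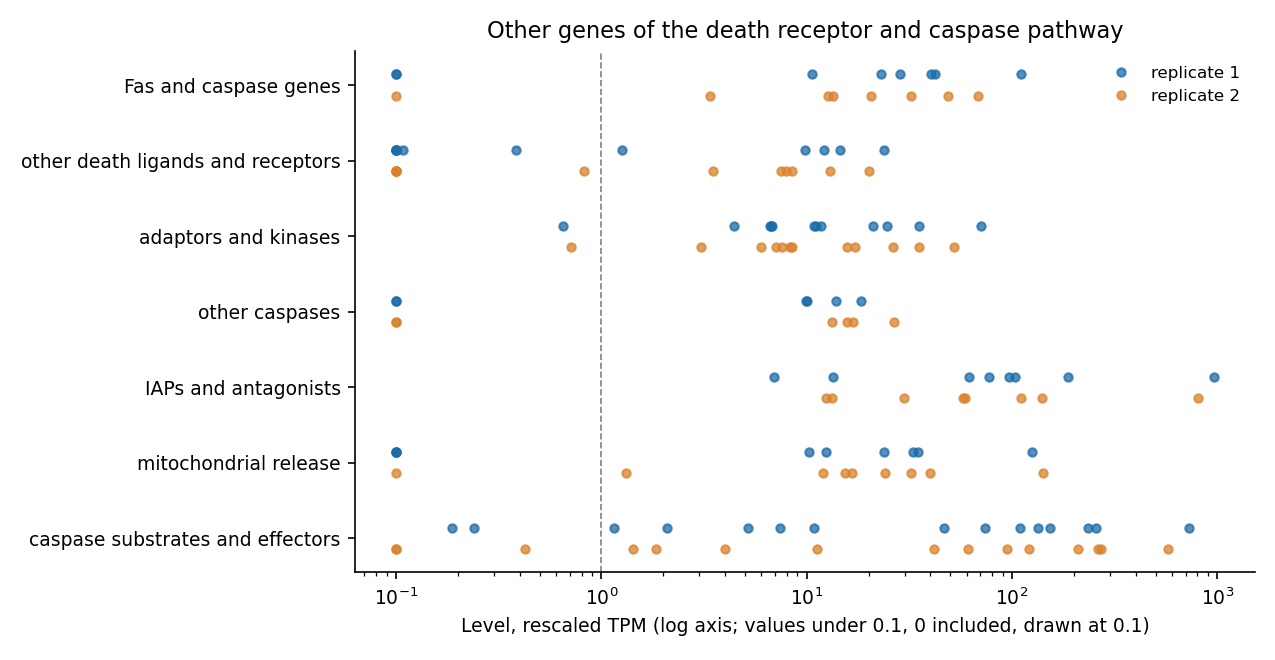
Level in rescaled TPM (log axis, values under 0.1 drawn at 0.1) of every gene of 6 pathway lists and of the 8 genes, 1 point per gene and library, with a dashed line at 1. The inhibitor list lies highest, with medians of 86.7 and 58.3, and the list of other ligands and receptors has the most points at the left edge, where points lie on top of each other.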

How the data were processed

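Gene and transcript tables of 2 libraries were used, each quantified by the authors on mm10 (GENCODE M4) from alignments to transcripts, per the text file deposited with them. The sources used here do not give the aligner, counting tool, versions or strand use. The deposited expected counts are estimates of reads and can be fractional, per the file headers. The deposited TPM is scaled over all entries, mitochondrial and spike-in RNA included, and both a likelihood-based and a posterior mean value were deposited. The deposited isoform share is a percent of the gene's TPM. The deposited FPKM and the bounds of a credibility interval, treated as a score because their level is not stated, were not used.

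The members and lists were chosen with earlier results of these data known. Names, types and coordinates came from GENCODE M21 (42462 of 43346 Ensembl genes matched). Levels are expected counts over effective length, summed to 1000000 over nuclear protein-coding genes, with 3 counts per library as the floor of a gene without counts. Intervals are exact Poisson or, for ratios, exact conditional binomial at 95%. Library ratios are log2(expected count + 0.5), centred by subtracting 0.21, for genes with a mean count of at least 20. The call over 2-fold was tried on simulated counts with Poisson error only. These lack any further spread between real libraries, so they give no error rate for this call here. For the alternatives, scaling factors came from rounded expected counts with the functions of edgeR 4.0.16 and DESeq2 1.42.0 (R 4.3.3), and other work used Python 3.11.15 with scipy 1.17.1. Of each pathway list, the 3 highest and 2 lowest by mean level and any at 0 in both libraries are named, except for a result that is not reported here. Of each marker list the 2 highest and any at 0 in both are named, and of each gene the transcripts holding at least 10% of its level in either library. The replicate numbers pair nothing, since there is 1 group.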

Additional observations from a re-analysis of the deposited data

How the results depend on the processing

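The choices that moved a result were mostly changes of scale. The summed level of the 8 genes was 226.9 rescaled TPM and became 5.64 in deposited TPM, 404.0 per 1000000 counts without length scaling, 316.8 with the adult globin genes left out of the total and 158.9 on protein-coding transcripts alone. With 1 library each it was 198.8 to 255.1. The count of genes at or above 1 in both libraries was 6 and fell to 1 in deposited TPM and it was 6 to 7 with 1 library each. The log2 ratio of Casp8 to Cflar was 2.11 on protein-coding transcripts alone, and with 1 library each it ran from -0.054 without replicate 2 to 1.33 without replicate 1, so its sign over all transcripts rested on replicate 2. That of Casp9 to Apaf1 was -1.26 to -0.30 with 1 library each. With Fas set at its floor, the log2 ratio of Fas to Fasl was -1.47 and became -2.50 without length scaling. It had no value without replicate 2. Of the 6 genes past the count filter, 1 was over 2-fold apart between the libraries in expected counts. With log2(deposited TPM + 1) 0 of 6 were, where 32 of 9078 genes (0.353%) were against 1599 (17.6%). With no filter on counts 2 of 7 were (Fasl and Apaf1), where 4251 of 12417 genes (34.2%) were. With log2(deposited TPM + 0.1), 879 of 9078 genes (9.68%) were, and with log2(rescaled TPM + 1), 1554 (17.1%) were. On both of these scales the gene called was Cflar in place of Apaf1. With a mean count of at least 100, 280 of 5340 genes (5.24%) were, and Apaf1 was the 1 called of 5 tested. The scaling factors of edgeR and DESeq2 gave the same member call, with 1603 of 9078 genes (17.7%) each. No paired analysis was possible because there is 1 group. Depth limits Fas, Fasl and Casp6, which had at most 43 counts in a library.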

Other observations

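Cflar and Casp8 are neighbours on chromosome 1, on the same strand with 36.5 kb between them. The untranslated end of Casp9 overlaps Cela2a and Ctrc, pancreatic protease genes on the opposite strand, both with 0 counts in both libraries. Casp8 overlaps Gm37760, an unconfirmed gene model on the same strand, which had 32 and 39 expected counts of its own. Without strand or read positions, reads of the overlapping models cannot be told apart.

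Of the 9078 nuclear protein-coding genes averaging 20 or more expected counts, 9034 were compared with each expressed gene in level over the 2 libraries. The closest was Runx1 for Casp2 (110.7 and 68.3 rescaled TPM), Gps1 for Casp8 (40.3 and 32.1) and Mybl1 for Cflar (42.2 and 13.1). It was Rab5b for Apaf1 (29.0 and 48.7), Tmem50b for Casp9 (23.0 and 20.4) and Fbxw5 for Casp6 (10.4 and 13.3). Likeness is the distance between log2 levels, and over 2 libraries many genes lie close to any given one.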
